A study of Mus musculus with 44 samples.

Results

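The comparison described here sets CD4 T cells from miR-150 knock-in (KI) mice in Treg culture against the same kind of cells in Th1 culture. Its members are the 10 libraries titled Treg KI or Th1 KI, 5 of each, out of 44 libraries in the series, and the counts of both sequencing lanes of a library were summed. Both groups started from splenic naive CD4 T cells, purified by sorting from C57BL/6NTac animals and stimulated for 3 days with antibody to CD3 fixed to the plate and antibody to CD28 in solution. Th1 KI cultures also received interleukin-12 (IL-12) and an antibody to IL-4, while Treg KI cultures received TGF-b1 and an antibody to interferon-gamma (IFN-g) in their place. The wild-type (WT) and knockout (KO) libraries of the same cultures, 5 of each, are used below only to ask whether the culture effect differed between genotypes. The labels give neither the age of the mice nor the promoter that drives the knock-in allele, and they do not say whether libraries with the same number came from the same mouse. P-values therefore measure the spread between these libraries, which may be partly technical.

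MicroRNA-150 is a short regulatory RNA of mature lymphocytes, and the transcription factor MYB is its best-known target. IL-12 acts through its receptor and STAT4 to raise T-bet, the Th1 factor encoded by Tbx21, which drives IFN-g. TGF-beta binds a pair of receptor kinases that phosphorylate SMAD2 and SMAD3, and in activated naive CD4 T cells it induces FOXP3, the lineage factor of regulatory T cells. TGF-beta signalling also induces its own brakes, among them SMAD7, SKI, SKIL and PMEPA1, so these transcripts serve as readouts of the pathway. The question the comparison answers is which genes separate these culture conditions in cells that carry the knock-in allele.

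The 10 libraries held between 83718208 and 120510769 counts, and levels are given as counts scaled to a common library size (CPM) with TMM factors. They were libraries of polyadenylated RNA, so mature miR-150 itself was not measured. The locus Mir150 (ENSMUSG00000065495, chromosome 7, 45121757 to 45121821, GRCm38) had 1 count over the 5 Treg KI libraries and 3 over the 5 Th1 KI libraries, which does not check the genotype labels. Cd4 and Cd3e, which define the labelled cell type, were present in all 10 libraries, Cd4 at 258 to 697 CPM and Cd3e at 99.98 to 265 CPM. Xist was at 1930.0 CPM or more in libraries 3, 4 and 5 of both cultures and at 0.305 CPM or less in libraries 1 and 2, while the Y-linked gene Ddx3y showed the reverse, so both groups held libraries of both sexes under the same numbers.

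Both libraries numbered 3 stood apart from the rest, and many of the results that rest on them, though not all, are given with and without them. Cd8a, the co-receptor of CD8 T cells, reached 318 CPM in Treg KI 3 against 10.4 to 18.4 CPM in the other Treg KI libraries, and 107.4 CPM in Th1 KI 3 against 3.24 to 9.32 CPM in the other Th1 KI libraries. The summed level of 8 CD8 T and NK cell markers was 540.3 CPM in Treg KI 3 against 25.8 to 46.3 CPM in the other 4, and 239 CPM in Th1 KI 3 against 16.1 to 31.05 CPM. The summed level of 10 B cell markers was also highest in these libraries, at 1407 CPM in Treg KI 3 and 1512 CPM in Th1 KI 3, against 159 to 799.8 CPM in the other 8. In a principal component analysis of 10583 genes, the first component took 71.4% of the variance and separated the cultures, and the second took 13.8% and separated the libraries numbered 3 from the other 8. Treg KI 3 lay at 4.92 on the first component, between the other Treg KI libraries (44.6 to 56.5) and the Th1 KI libraries (-46.6 to -38.7). The Cd8a level was entered as a term in an alternative fit, given near the end. Beyond that fit, the part of these markers in the results below was not tested.

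**Figure D1:**
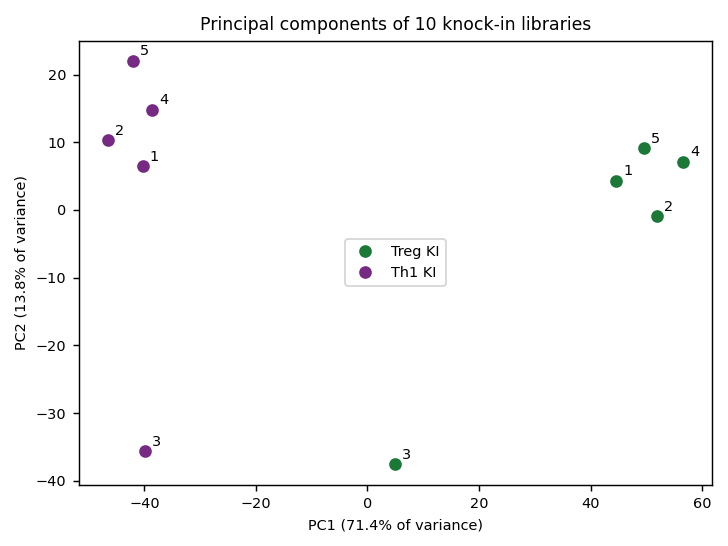
First and second principal components of log2 (CPM + 0.5) over 10583 genes in the 5 Treg KI libraries (green) and the 5 Th1 KI libraries (purple), with the library number beside each point. The cultures separate along the first component, and both libraries numbered 3 lie at the bottom of the second, at -37.6 and -35.6.

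Between Treg KI and Th1 KI, 7182 of 21873 tested genes (32.8%) passed an adjusted p of 0.05 in the quasi-likelihood test of edgeR. Of these, 3722 (17%) were higher and 3460 (15.8%) were lower in Treg KI, and below a gene is said to have risen or fallen in Treg KI relative to Th1 KI where it passed this test. The median log2 fold change over all tested genes was 0.0050. A change of at least 2 on the log2 scale was found for 814 higher and 797 lower genes, and one of at least 5 for 221 and 197. The 5 libraries of one culture did not overlap those of the other for 5237 genes (23.9%), and 4668 genes were both called and free of overlap. Without both libraries numbered 3 the test called 7492 genes (33.6%), 3554 higher (15.9%) and 3938 lower (17.7%), while a fit that also held library number as a block, called the block below, gave 8718 (39.9%), 4462 higher (20.4%) and 4256 lower (19.5%). In bulk RNA a lower value can mean fewer cells that express a gene or less RNA per cell, and these cannot be told apart here. Of the genes named below, Abca1, Batf3, Bmf, Cd160, Csf1r, Cxcr4, Cxcr6, Ifit3b, Ighm, Il10, Il18rap, Itgam, Oas1a, Pkm and Smad6 lost their call when 1 of the 10 libraries was left out.

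Among well expressed genes, the large increases in Treg KI included those of Foxp3, Tead1, Drc1, Nt5e, Lrrc32, Aqp3, Itgae, Cd101, Klf2, Timp2 and Capn3. Tead1, a DNA-binding partner of YAP and TAZ in the Hippo pathway, was at 60.9 to 71.4 CPM in 4 Treg KI libraries but at 0.945 CPM in Treg KI 3, still above the highest Th1 KI library at 0.356 CPM. Its log2 fold change was 8.26 ± 1.15 (SE, adjusted p = 8.68e-07). Aqp3, a water and glycerol channel, rose by 6.27 ± 0.97 and Timp2, an inhibitor of matrix metalloproteinases, by 5.61 ± 0.70 on the log2 scale. Drc1, which encodes a component of the ciliary dynein regulatory complex, rose by 7.28 ± 1.25, and Capn3, a calpain protease, by 5.46 ± 1.0.

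Among called genes without overlap between the groups and with a mean log2 CPM of 2 or more, the largest decreases were those of Selp, Timp1, Tnfrsf8, Il3, Ramp3, Ifng, Sema3b, Il21, Myh11, Ttc39c, Cth and Dclk1. Selp, which encodes the adhesion molecule P-selectin, was at 0.352, 0.280, 1.14, 0 and 0.212 CPM in Treg KI libraries 1 to 5 and at 91.2, 110.4, 77.6, 54.3 and 64.4 CPM in Th1 KI. Its log2 fold change was -7.62 ± 1.26 (adjusted p = 1.27e-05), or -8.60 without both libraries numbered 3. Timp1 went the opposite way from its paralogue Timp2, with 0.0516 to 0.853 CPM in Treg KI and 36.2 to 102.5 CPM in Th1 KI (log2 fold change -7.38 ± 1.14). Tnfrsf8, the activation receptor CD30, was at 1.47, 2.10, 8.23, 1.85 and 1.03 CPM in Treg KI and at 187, 201, 172, 164 and 159.8 CPM in Th1 KI, a log2 fold change of -5.91 ± 1.14 (adjusted p = 0.000111), or -6.83 without both libraries numbered 3. Ramp3, a partner protein of calcitonin-type receptors, fell by 5.22 ± 0.96 on the log2 scale, or by 7.28 without both libraries numbered 3, and the semaphorin Sema3b by 4.95 ± 0.91. Cth, an enzyme of cysteine synthesis from methionine, fell by 4.31 ± 0.70.

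To show the DNA before the starts of the genes the comparison turns on, the 250 bases upstream of 4 of them are printed here from RefSeq's promoter table of GRCm38.p6. They were searched on both strands for an NFAT core (GGAAA), an AP-1 site (TGANTCA) and a T-box site (AGGTGTGA), since NFAT and AP-1 carry the T cell receptor signal and T-bet is a T-box protein. Capitals mark the matches. Foxp3 is read at chrX:7579426-7579675 on the plus strand (the more upstream of 2 starts), Ifng at chr10:118440796-118441045 on the plus strand, Il2 at chr3:37125955-37126204 on the minus strand and Tnfrsf8 at chr4:145315165-145315414 on the minus strand.
Foxp3: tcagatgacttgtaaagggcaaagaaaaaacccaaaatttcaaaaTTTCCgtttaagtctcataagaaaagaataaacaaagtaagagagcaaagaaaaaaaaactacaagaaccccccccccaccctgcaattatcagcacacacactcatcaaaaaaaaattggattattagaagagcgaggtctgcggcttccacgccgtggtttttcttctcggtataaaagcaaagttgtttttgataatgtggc
Ifng: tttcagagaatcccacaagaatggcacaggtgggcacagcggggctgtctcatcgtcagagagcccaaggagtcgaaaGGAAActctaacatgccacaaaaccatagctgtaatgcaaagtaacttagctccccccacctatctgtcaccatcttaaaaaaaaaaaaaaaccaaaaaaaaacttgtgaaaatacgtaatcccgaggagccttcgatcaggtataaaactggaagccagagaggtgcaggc
Il2: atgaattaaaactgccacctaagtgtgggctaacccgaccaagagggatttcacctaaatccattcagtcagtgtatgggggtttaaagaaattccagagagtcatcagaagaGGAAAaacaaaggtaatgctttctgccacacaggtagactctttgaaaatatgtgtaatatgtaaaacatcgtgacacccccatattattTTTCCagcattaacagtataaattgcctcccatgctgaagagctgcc
Tnfrsf8: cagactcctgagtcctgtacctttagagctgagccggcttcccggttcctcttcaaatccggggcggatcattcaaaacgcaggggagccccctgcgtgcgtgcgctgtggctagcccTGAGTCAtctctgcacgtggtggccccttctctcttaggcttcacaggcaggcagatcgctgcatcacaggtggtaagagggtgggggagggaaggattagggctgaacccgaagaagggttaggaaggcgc
The NFAT core was found once before Foxp3 and Ifng and at 2 places before Il2, and it is common, in 55.6% of 32851 windows of this length. The AP-1 site was found once before Tnfrsf8, at position -132 from the start, against 6.75% of windows, and the T-box site in none of the 4, against 1.12%. The 4 genes were picked by hand, so setting their matches beside these shares is no test of enrichment. A match of these letters is a description of the sequence and does not show that a factor binds there.

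Foxp3 marked the Treg culture. It is ENSMUSG00000039521 on chromosome X, 7573644 to 7595245 (GRCm38), and was at 479, 524, 61.97, 559 and 559 CPM in Treg KI libraries 1 to 5 and at 0.808, 0.569, 1.68, 1.17 and 0.801 CPM in Th1 KI libraries 1 to 5. Treg KI 3 was well below the other Treg KI libraries and still far above every Th1 KI library. The means were 437 ± 212 and 1.01 ± 0.436 CPM (SD, n = 5 each), and the log2 fold change was 8.77 ± 0.72 (adjusted p = 2.61e-11). Without both libraries numbered 3 it was 9.27.

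Of 25 genes linked to regulatory T cells, 11 rose and 3 fell (44% and 12%, against 17% and 15.8% of all tested genes), and their median log2 fold change was 1.34. The largest increases after Foxp3 were in surface molecules. Nt5e, which encodes CD73, the enzyme that makes adenosine from AMP, was at 310.2, 358, 103.3, 479.9 and 289.6 CPM in Treg KI and at 1.598, 1.66, 5.12, 1.49 and 1.19 CPM in Th1 KI (log2 fold change 7.13 ± 0.67, or 7.88 without both libraries numbered 3). Lrrc32, which encodes GARP, the protein that tethers latent TGF-beta to the surface of regulatory T cells, was at 87.9, 73.7, 17.4, 103.9 and 99.1 CPM against 0.901, 0.494, 1.34, 0.816 and 0.406 CPM (log2 fold change 6.59 ± 0.57). For both genes Treg KI 3 was the lowest Treg KI library and Th1 KI 3 the highest Th1 KI library, and the groups did not overlap.

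Itgae, the alpha chain of CD103, which binds E-cadherin, differed from them in the position of Treg KI 3. Its values were 29.3, 47.9, 127.03, 83.8 and 15.2 CPM in Treg KI and 0.502, 1.11, 0.759, 0.738 and 1.33 CPM in Th1 KI, with Treg KI 3 the highest of all. The log2 fold change was 6.09 ± 0.62 (adjusted p = 2.87e-09). The Ikaros-family factors Ikzf2 (Helios) and Ikzf4 (Eos) rose by 2.17 ± 0.40 and 1.54 ± 0.25 on the log2 scale, and Ikzf2 too was highest in Treg KI 3, at 137.7 CPM against 49.9 to 68.02 CPM. Gpr83, an orphan-type receptor of regulatory T cells, rose by 4.85 ± 0.61, and Izumo1r, the folate receptor 4 used as a marker of these cells, by 2.79 ± 0.24. Socs2, a STAT5-induced inhibitor of cytokine signalling, rose by 4.34 ± 0.54, and the actin-capping protein gene Capg by 2.02 ± 0.19. Nrp1, a co-receptor of semaphorins, rose by 2.65 ± 0.63, but in Treg KI 3 it was at 5.75 CPM, within the Th1 KI range of 5.68 to 18.5 CPM.

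The 3 members that fell were Il10, Prdm1 and Tnfrsf4. Il10, the anti-inflammatory cytokine, was at 0 to 0.284 CPM in Treg KI and at 0.520 to 2.82 CPM in Th1 KI, without overlap (log2 fold change -4.45 ± 1.52, adjusted p = 0.022, or -5.79 without both libraries numbered 3). Prdm1, which encodes the effector factor Blimp-1, was at 0.294 to 2.73 CPM against 7.88 to 19.3 CPM (log2 fold change -3.38 ± 0.79). Tnfrsf4, the costimulatory receptor OX40, fell by 0.72 ± 0.22 on the log2 scale. Il2ra, the IL-2 receptor alpha chain CD25, did not pass the test, at 1334 to 1873 CPM in Treg KI and 1857 to 2204 CPM in Th1 KI (log2 fold change -0.20 ± 0.22), nor did Il2rb (0.14 ± 0.25), Ctla4 (0.47 ± 0.24), Icos (-0.43 ± 0.24), Ebi3 (-0.57 ± 0.28) or Cd83 (-0.33 ± 0.43). The remaining 5 members did not pass the test either, but were called with the block: Entpd1 (log2 fold change 1.58, adjusted p = 0.0032) and Gpr15 (1.22, 0.034) higher, and Tnfrsf18 (-0.59, 0.026), Tnfrsf9 (-1.51, 5.1e-05) and Tigit (-1.78, 0.0013) lower. The count became 13 higher and 6 lower with the block, and 11 and 6 without both libraries numbered 3.

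**Figure D2:**
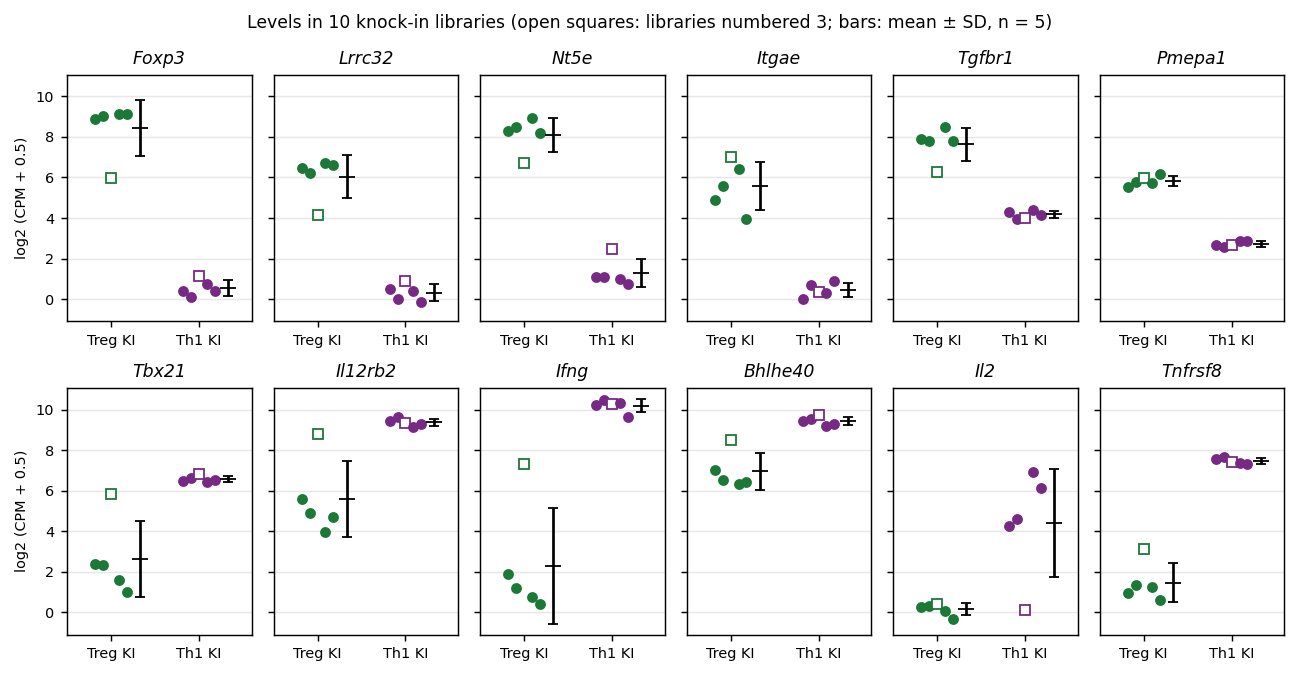
Levels of 12 genes as log2 (CPM + 0.5) in each of the 5 Treg KI (green) and 5 Th1 KI libraries (purple), with open squares for the libraries numbered 3 and black bars for mean ± SD (n = 5). Foxp3, Lrrc32, Nt5e, Itgae, Tgfbr1 and Pmepa1 are higher in every Treg KI library than in any Th1 KI library. Tbx21, Il12rb2 and Ifng are lower in every Treg KI library, with Treg KI 3 nearest to the Th1 KI libraries, and Il2 is low in Th1 KI 3 as well.

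In the TGF-beta pathway 10 of 22 tested members rose and none fell (45.5% and 0%), with a median log2 fold change of 0.59. Among the receptors 3 rose, while Tgfbr3 and Eng did not pass the test. Tgfbr1, the signalling kinase, was at 235, 219, 77.6, 358 and 223 CPM in Treg KI and at 19.5, 15.2, 15.8, 20.9 and 17.1 CPM in Th1 KI, a log2 fold change of 3.65 ± 0.38 (adjusted p = 4.03e-09). Tgfbr2, the ligand-binding kinase, rose by 1.59 ± 0.18 and the activin receptor Acvr1b by 1.83 ± 0.25 on the log2 scale, and the groups did not overlap for any of the 3. The ligand gene Tgfb1 did not pass the test, at 89.7 to 135.01 CPM in Treg KI and 82.2 to 115.9 CPM in Th1 KI.

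Several inhibitors of the pathway rose, while Bambi, Smurf1 and Tgif1, given below, did not pass the test. Pmepa1, which sequesters SMAD2 and SMAD3, was at 46.5, 53.8, 61.96, 53.1 and 71.99 CPM in Treg KI and at 5.91, 5.42, 5.77, 6.68 and 6.77 CPM in Th1 KI, a log2 fold change of 3.23 ± 0.27 (adjusted p = 2.61e-11). Treg KI 3 lay inside the range of the other Treg KI libraries for this gene. Ldlrad4, a further inhibitor of SMAD activation, rose by 3.59 ± 0.48, the inhibitory SMAD gene Smad7 by 1.81 ± 0.28, the co-repressors Ski and Skil by 2.08 ± 0.24 and 1.78 ± 0.15, and the ubiquitin ligase gene Smurf2 by 0.74 ± 0.14 on the log2 scale. Skil was highest in Treg KI 3, at 344 CPM. Smad6, a second inhibitory SMAD, was called higher, with 0 counts in all 5 Th1 KI libraries and a mean of 0.0963 ± 0.163 CPM in Treg KI, at least 17-fold above a floor of 3 counts over the Th1 KI group. Most of its counts came from Treg KI 4, at 0.382 CPM. Without that library the mean was 0.0249 ± 0.0395 CPM, at least 4-fold above the floor, and Smad6 did not pass the filter on low counts, so it was not tested.

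The signal-carrying SMAD genes differed little: Smad2 (log2 fold change -0.14 ± 0.10), Smad3 (-0.19 ± 0.15) and Smad4 (0.24 ± 0.12) did not pass the test. Neither did Bambi (0.45 ± 0.31), Smurf1 (0.22 ± 0.20), Tgfbr3 (-0.34 ± 0.20), Tgfb2 (-0.29 ± 0.87) or Tgfb3 (2.65 ± 1.45). Tgfb3 was at 28.05 CPM in Treg KI 3 and 0.145 to 0.570 CPM in the other Treg KI libraries, and its log2 fold change was -0.22 without both libraries numbered 3. With the block 3 members were called lower, among them the coreceptor gene Eng (log2 fold change -1.47, adjusted p = 8.3e-05) and the co-repressor gene Tgif1 (-0.37, 0.0032). Without both libraries numbered 3, 4 were called lower, among them Eng, Tgif1 and Tgfbr3.

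**Figure D3:**
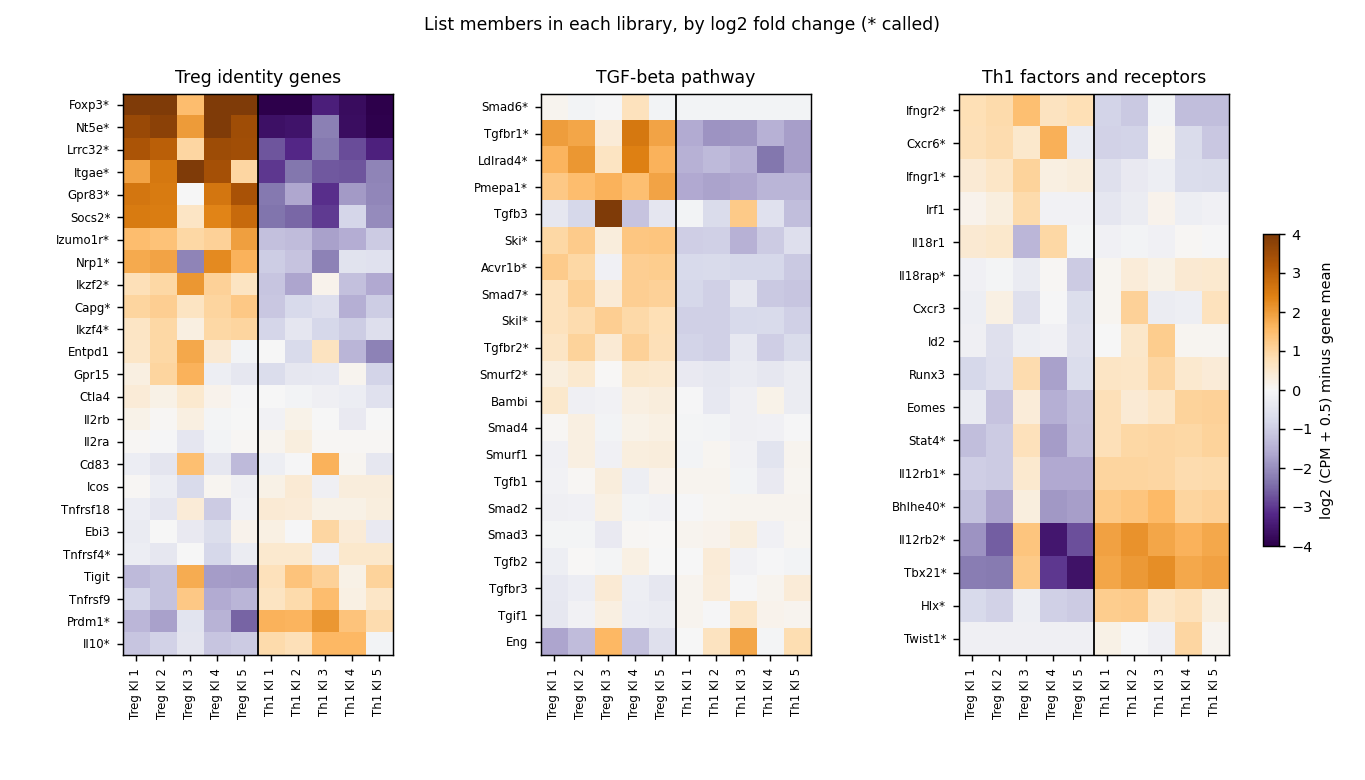
Heat map of tested members of the Treg, TGF-beta and Th1 lists, without those not reported here, in the 10 libraries, as log2 (CPM + 0.5) minus each gene's mean over the 10 libraries, with members ordered by log2 fold change and called members marked by an asterisk. Foxp3, Nt5e, Lrrc32 and Itgae lead the first panel, and Treg KI 3 stands nearer to the Th1 KI libraries for Il12rb2, Tbx21 and Stat4 in the third.

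Of 19 Th1 factors and receptors, 9 fell and 4 rose (47.4% and 21.1%). Tbx21 (ENSMUSG00000001444, chromosome 11, 97098071 to 97115331) was at 4.66, 4.58, 56.9, 2.50 and 1.496 CPM in Treg KI and at 87.5, 99.9, 112.03, 85.5 and 91.3 CPM in Th1 KI. Treg KI 3 was far above the other Treg KI libraries and below every Th1 KI library. The log2 fold change was -2.76 ± 0.81 (adjusted p = 0.00765), and -4.83 without both libraries numbered 3.

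The receptor of the cytokine added to the Th1 culture followed the same pattern. Il12rb2, the signalling chain of the IL-12 receptor, was at 47.1, 28.9, 447, 15.3 and 25.9 CPM in Treg KI and at 684, 794, 648, 574 and 636 CPM in Th1 KI (log2 fold change -2.56 ± 0.84, adjusted p = 0.0172, and -4.56 without both libraries numbered 3). Il12rb1, the other chain, fell by 1.69 ± 0.43 and Stat4, the transducer of IL-12, by 1.57 ± 0.40 on the log2 scale, or by 2.30 and 2.31 without both libraries numbered 3. Bhlhe40, a cofactor of T-bet, fell by 2.22 ± 0.41, the homeobox gene Hlx by 3.37 ± 1.08, and Il18rap, a chain of the IL-18 receptor, by 0.60 ± 0.21. Without those libraries Bhlhe40 fell by 2.81 and Hlx fell by 4.56. Twist1, which restrains Th1 cytokines, had 0 counts in all 5 Treg KI libraries and a mean of 0.195 ± 0.253 CPM in Th1 KI, at least 33-fold above the floor, or 14-fold without Th1 KI 4.

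Among the 4 Th1 factors and receptors that rose were both chains of the IFN-g receptor, Ifngr1 (log2 fold change 1.07 ± 0.26) and Ifngr2 (1.84 ± 0.19), and the chemokine receptor gene Cxcr6 (1.72 ± 0.52). The cultures differed at once in TGF-b1, IL-12 and the antibodies to IFN-g and IL-4. Their parts in these changes cannot be told apart and were not tested. Irf1 (0.47 ± 0.26), Il18r1 (0.36 ± 0.38), Cxcr3 (-0.66 ± 0.35), Eomes (-1.44 ± 0.60), Runx3 (-0.98 ± 0.46) and Id2 (-0.82 ± 0.34) did not pass the test. With the block Runx3 (log2 fold change -1.16, adjusted p = 0.0032) and Id2 (-0.76, 0.0025) were called lower.

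Of 18 Th1 and cytotoxic effector genes, 7 fell and none rose (38.9% and 0%), with a median of -1.60. Ifng (ENSMUSG00000055170, chromosome 10, 118441046 to 118445892) was at 3.20, 1.77, 160.1, 1.19 and 0.825 CPM in Treg KI and at 1214, 1426, 1241, 1291 and 791 CPM in Th1 KI. The groups did not overlap, and Treg KI 3 was far above the other Treg KI libraries. The log2 fold change was -5.16 ± 1.58 (adjusted p = 0.0105), and -9.44 without both libraries numbered 3. The inflammatory chemokines Ccl3 and Ccl4 fell by 3.62 ± 0.83 and 3.21 ± 0.75, or by 5.52 and 4.90 without those libraries, and Serpinb9, which protects cells from their own granzyme B, fell by 3.44 ± 0.43. Gzmb, which encodes granzyme B and is named here after its values were seen, was at 58.7, 23.98, 1309, 8.46 and 14.4 CPM in Treg KI and at 782, 772, 2144, 762.5 and 399 CPM in Th1 KI, and the groups overlapped through Treg KI 3. It did not pass the test (log2 fold change -1.78 ± 1.35) but was called with the block (-4.01, adjusted p = 0.0047) and without both libraries numbered 3 (-4.72, adjusted p = 0.018). The count of the list became 12 lower and 3 higher with the block, and 10 and 1 without both libraries numbered 3.

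Most activation cytokines fell in Treg KI: of 15 tested, 10 fell and 1 rose (66.7% and 6.67%), with a median of -2.59. Il2 (ENSMUSG00000027720, chromosome 3, 37120523 to 37125959), the T cell growth factor, was at 0.695, 0.757, 0.836, 0.557 and 0.302 CPM in Treg KI and at 18.9, 23.7, 0.572, 122.7 and 69.7 CPM in Th1 KI. Th1 KI 3 fell inside the Treg KI range, so the groups overlapped through that library. The log2 fold change was -6.23 ± 1.10 (adjusted p = 3.26e-05), or -5.53 without Th1 KI 4 and -4.98 with the block. Il3, a growth factor of myeloid cells, was at 0 to 1.76 CPM in Treg KI and 13.4 to 43.3 CPM in Th1 KI (log2 fold change -5.73 ± 1.01, and -7.84 without both libraries numbered 3). Il21, a cytokine of follicular and Th17 cells, was at 0 to 0.0350 CPM in 4 Treg KI libraries, 8.80 CPM in Treg KI 3 and 46.1 to 73.2 CPM in Th1 KI (log2 fold change -4.94 ± 1.6, adjusted p = 0.0153). With both libraries numbered 3 left out it had 3 counts over 4 Treg KI libraries against 25340 over 4 Th1 KI libraries, a ratio of 7702 scaled to library size (95% exact interval 2635 to 37352, counting error only). The fourth by size was Il10, given above.

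Genes of the other helper lineages moved both ways. Of 14 tested Th2 genes 6 rose and 2 fell (42.9% and 14.3%), and Gata3, the Th2 lineage factor, was at 28.05, 30.05, 30.8, 26.9 and 25.1 CPM in Treg KI and at 3.40, 2.17, 3.04, 2.60 and 3.41 CPM in Th1 KI (log2 fold change 3.27 ± 0.42, adjusted p = 2.05e-07). These values varied little between libraries, and Treg KI 3 was like the rest. Maf, a factor of Th2 and follicular cells, rose by 4.33 ± 0.71 and the chemokine receptor Ccr8 by 3.08 ± 0.50. Il9 had 0 counts in all 5 Th1 KI libraries and 0.830 ± 0.851 CPM in Treg KI, at least 146-fold above the floor, or 88-fold without Treg KI 3.

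Of 15 Th17 genes 6 rose and 7 fell (40% and 46.7%). Ccl20, the ligand of CCR6, rose by 6.79 ± 1.44, or by 7.61 without Th1 KI 2, at 0.1255 to 4.45 CPM in Treg KI and 0 to 0.0494 CPM in Th1 KI. Il23r, the receptor that stabilises Th17 cells, went the other way, at 0 to 0.226 CPM in Treg KI and 4.64 to 7.37 CPM in Th1 KI (log2 fold change -6.18 ± 1.13, or -7.27 without both libraries numbered 3). Il22, an effector cytokine of Th17 cells, had 0 counts in all 5 Treg KI libraries and 1.28 ± 0.293 CPM in Th1 KI, at least 222-fold above the floor.

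Among chemokine and trafficking receptors 7 of 16 tested members rose and 2 fell (43.8% and 12.5%), or 8 and 4 with the block. Ccr6, which guides cells to CCL20, was at 104.9, 125.9, 57.97, 132.1 and 83.9 CPM in Treg KI and at 2.86, 3.03, 10.3, 7.03 and 9.09 CPM in Th1 KI (log2 fold change 3.97 ± 0.68). Ccr9, a gut-homing receptor, rose by 2.50 ± 0.55 from a low level, with Treg KI 1 at 0.881 CPM below Th1 KI 3 at 0.990 CPM. Of 19 integrin and adhesion genes 8 rose and 4 fell (42.1% and 21.1%). Besides Itgae, the laminin receptor chain Itga6 rose by 2.42 ± 0.30 and Itgam, the alpha chain of the myeloid integrin CD11b, by 2.19 ± 0.83, or 3.23 without both libraries numbered 3, while the collagen receptor chain Itga2 fell by 2.44 ± 0.51.

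Of the naive and quiescence genes, 12 of 23 rose and 2 fell (52.2% and 8.70%), with a median of 0.67. Klf2, a factor that holds T cells in quiescence and in circulation, was at 38.5, 49.8, 5.22, 47.2 and 49.2 CPM in Treg KI and at 0.576, 0.239, 1.19, 0.504 and 0.686 CPM in Th1 KI (log2 fold change 5.90 ± 0.73, adjusted p = 9.35e-08, and 6.49 without both libraries numbered 3). Treg KI 3 was the lowest of its group and Th1 KI 3 the highest of the other. The G protein regulator Rgs10 rose by 3.45 ± 0.36, Igfbp4 by 3.26 ± 0.55 and Klf3 by 2.21 ± 0.52.

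T cell receptor signal and immediate early genes moved in the opposite direction: 9 of 23 fell and none rose (39.1% and 0%), with a median of -0.53, and with the block 10 fell and 1 rose. The largest falls were in AP-1 family genes. Fosl2 was at 19.1, 13.9, 116.6, 10.7 and 14.1 CPM in Treg KI and at 346, 380.4, 287, 255 and 311 CPM in Th1 KI (log2 fold change -3.18 ± 0.62, adjusted p = 0.000126, and -4.52 without both libraries numbered 3). Batf3 fell by 3.46 ± 1.19, or by 5.93 without those libraries, and Fosl1 by 2.87 ± 0.50. Nr4a2, an orphan nuclear receptor induced by T cell receptor signals, fell by 2.60 ± 0.44, or by 3.62. Batf3, Fosl2 and Nr4a2 were each highest among the Treg KI libraries in Treg KI 3.

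Costimulatory and inhibitory receptors split evenly, 5 of 23 up and 5 down (21.7% each). Cd101, an inhibitory receptor, was at 72.7 to 120.7 CPM in 4 Treg KI libraries, at 21.7 CPM in Treg KI 3, and at 1.96, 0.890, 1.44, 0.903 and 1.26 CPM in Th1 KI (log2 fold change 5.94 ± 0.56, adjusted p = 3.51e-10). Cd96, a receptor of the CD155 family of ligands, rose by 3.18 ± 0.35 and Cd160 by 1.28 ± 0.43, while Slamf7 fell by 3.17 ± 0.66, or by 4.11 without both libraries numbered 3. The number lower became 11 with the block and 10 without both libraries numbered 3. Of 15 STAT and SOCS genes 3 rose and 3 fell (20% each, near the shares of all tested genes). Socs3, the inhibitor of IL-6 and IL-12 family signals, fell by 1.81 ± 0.45, opposite to Socs2.

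Adenosine and nucleotide genes moved both ways. Of 13 purinergic receptor and enzyme genes 4 rose and 6 fell (30.8% and 46.2%). The genes of the enzymes Nt5e and Art2b, a cell-surface ADP-ribosyltransferase (3.30 ± 0.46), rose, while those of the adenosine receptors Adora2a and Adora2b fell by 2.48 ± 0.32 and 3.14 ± 0.57. The enzyme gene Entpd1 did not pass the test, and without Treg KI 3 the log2 fold change of Adora2b was -3.81. Adora2a was at 6.88 to 14.6 CPM in Treg KI and 48.2 to 64.1 CPM in Th1 KI.

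Genes induced by interferon moved both ways. Of 26 IFN-g response genes 2 rose and 4 fell (7.69% and 15.4%, at or under the shares of all tested genes), with a median of 0.24, and 1 and 4 without both libraries numbered 3. Cxcl9, Cxcl10 and Cxcl11, the chemokine ligands of CXCR3, had log2 fold changes of -3.42 ± 0.87, -3.86 ± 0.70 and -3.50 ± 1.11, and of -4.80, -5.38 and -7.15 without both libraries numbered 3. Cxcl10 was at 0.176 to 4.58 CPM in Treg KI and at 14.4 to 25.997 CPM in Th1 KI. Ciita, the master activator of MHC class II genes, rose by 2.84 ± 0.85, or by 3.46 without those libraries, with 61.8 CPM in Treg KI 3 and 13.02 CPM in Th1 KI 3 as the highest values of their groups. Of 26 antiviral interferon-stimulated genes 3 rose and 6 fell (11.5% and 23.1%), or 5 and 8 with the block. Usp18, which damps type I interferon receptors, fell by 2.20 ± 0.66, or by 3.0, Oasl1 by 2.61 ± 0.86, or by 3.24, and Oas1a by 2.15 ± 0.69. Without Th1 KI 3 the log2 fold change of Oas1a was -1.43, and it was not called. Ifit3b rose by 2.0 ± 0.74, but it has a near-identical neighbour, so its count is uncertain, and it was not called without both libraries numbered 3 (adjusted p = 0.062).

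The list of ribosome biogenesis, MYC and the amino acid carrier and polyamine genes had the largest share of members on 1 side among the 30 lists: 22 of 24 genes fell and none rose (91.7% and 0%), with a median of -0.89. Rrp12, a factor of ribosomal subunit export, was at 44.04, 37.3, 44.6, 40.5 and 49.5 CPM in Treg KI and at 113.2, 131.1, 82.3, 117.1 and 136.99 CPM in Th1 KI (log2 fold change -1.43 ± 0.25, adjusted p = 2.32e-05). Th1 KI 3 was the lowest of its group, and the groups did not overlap. Odc1, the MYC target that starts polyamine synthesis, fell by 1.33 ± 0.22, and Slc7a5 and Slc3a2, which together form a carrier of large neutral amino acids, by 1.27 ± 0.32 and 1.17 ± 0.26. The same 22 to 0 split was found without both libraries numbered 3.

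Metabolic lists moved less. Of 22 glycolysis genes 4 fell and 2 rose (18.2% and 9.09%, near the shares of all tested genes), and Hk2, the inducible hexokinase, was at 41.9 to 137.02 CPM in Treg KI and at 242 to 412 CPM in Th1 KI (log2 fold change -2.27 ± 0.46). Eno3 rose by 1.5 ± 0.29, and the lactate carrier Slc16a1 and the pyruvate kinase gene Pkm fell by 0.95 ± 0.18 and 0.78 ± 0.27. With the block 10 of the 22 were lower, and without both libraries numbered 3, 6. Of 21 nuclear genes of oxidative phosphorylation 5 fell (23.8%), led by cytochrome c, Cycs, at -0.77 ± 0.20, and Atp5b at -0.49 ± 0.12. Of 22 genes linked to cholesterol 1 rose and 2 fell (4.55% and 9.09%), or 2 and 5 with the block: the efflux pump gene Abcg1 rose by 2.19 ± 0.43, and its relative Abca1 fell by 1.49 ± 0.53. Without both libraries numbered 3 Abca1 was not called (adjusted p = 0.08).

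Of 26 cell cycle genes 8 rose and 2 fell (30.8% and 7.69%), or 14 and 2 with the block. Ccnb2, a mitotic cyclin, rose by 1.10 ± 0.16. The largest changes were in genes of cell cycle inhibitors, which moved both ways. Cdkn1a (p21) was at 39.6, 36.6, 198, 15.5 and 71.1 CPM in Treg KI and at 311, 390.2, 406, 277 and 357 CPM in Th1 KI (log2 fold change -2.27 ± 0.48, and -3.07 without both libraries numbered 3), while Cdkn1b (p27) rose by 1.45 ± 0.22 and Cdkn2c (p18) by 1.44 ± 0.23. In the BCL2 family 5 of 16 fell and 2 rose (31.2% and 12.5%), on both sides of the family's function: the survival gene Bcl2l1 fell by 1.20 ± 0.21 and the death genes Bcl2l11 and Bax by 1.16 ± 0.28 and 0.97 ± 0.22, while the death gene Bmf rose by 1.10 ± 0.40. Stress genes fell in 8 of 12 cases and rose in none (66.7% and 0%), among them Hmox1 (-2.08 ± 0.45) and Atf4 (-1.26 ± 0.23).

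**Figure D4:**
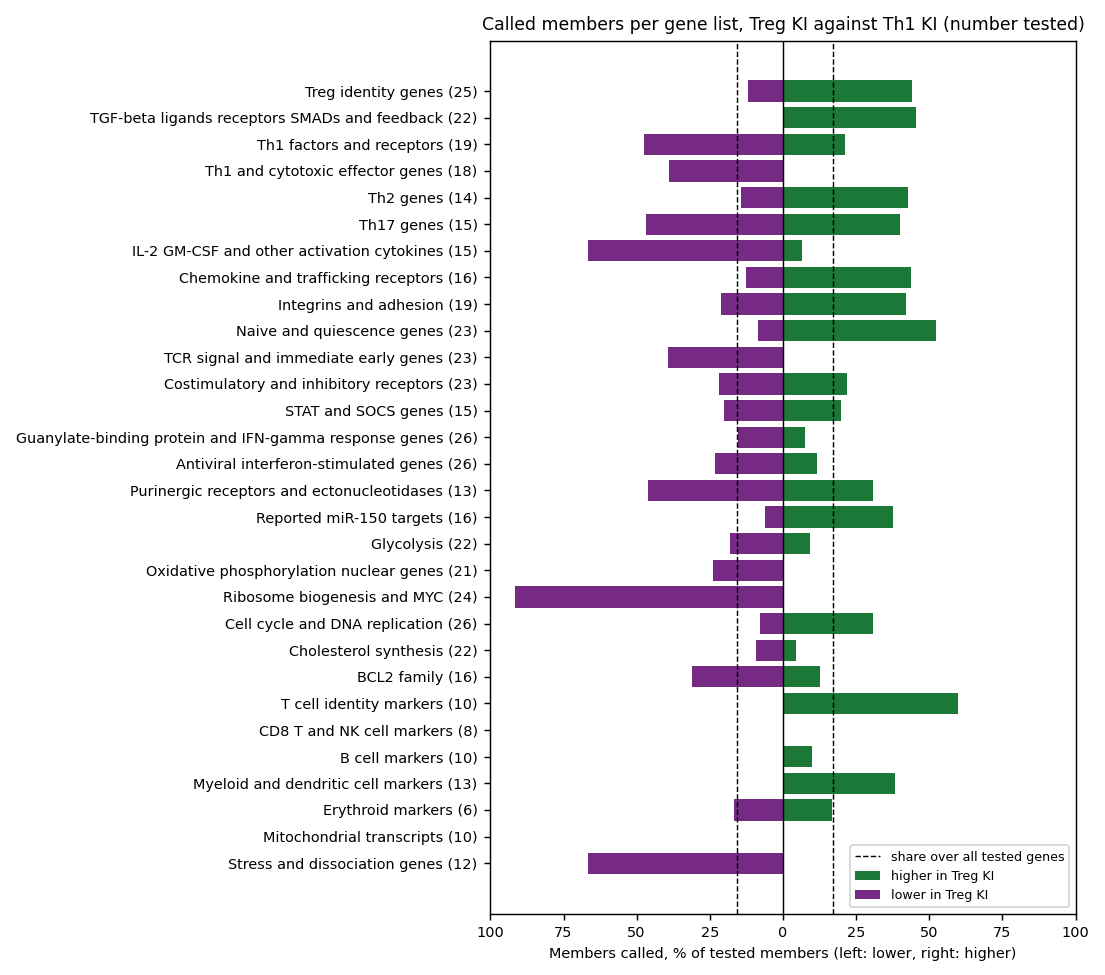
Share of tested members of each gene list that were called higher (green, to the right) or lower (purple, to the left) in Treg KI than in Th1 KI, in percent, with the number tested in brackets. Dashed lines mark the shares over all 21873 tested genes, 17% higher and 15.8% lower. The list of ribosome biogenesis and MYC reaches furthest to the left and T cell identity markers furthest to the right.

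Among 16 reported targets of miR-150, 6 rose and 1 fell (37.5% and 6.25%), with a median of 0.29. Myb, the best-known one, did not pass the test: it was at 94.5, 79.04, 84.2, 88.4 and 87.3 CPM in Treg KI and at 67.5, 62.7, 93.5, 54.5 and 39.1 CPM in Th1 KI (log2 fold change 0.45 ± 0.23, adjusted p = 0.143). The groups overlapped through Th1 KI 3. The changes that passed were led by Ccr6, given above, Cxcr4 (1.43 ± 0.52) and Foxo1 (0.99 ± 0.17), which encodes a factor of naive T cells and of regulatory T cells, and by Zeb1, a repressor of E-cadherin and of cytokine genes, which fell by 0.91 ± 0.16. Without both libraries numbered 3 Cxcr4 was not called (adjusted p = 0.092). Since all 10 libraries carry the knock-in allele, these values compare cultures and not levels of miR-150. With the block 7 rose and 4 fell.

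Cell type markers were compared between the cultures in the same way. Beyond the fit with Cd8a as a term, their part in the results was not tested. Of 10 T cell identity markers 6 rose and none fell (60% and 0%), led by Cd3g (1.07 ± 0.20), Cd3e (1.04 ± 0.14), Cd3d (0.93 ± 0.17) and Cd4. Cd4 was at 566, 697, 389, 598 and 677 CPM in Treg KI and at 367, 372, 258, 346 and 413 CPM in Th1 KI (log2 fold change 0.74 ± 0.22, adjusted p = 0.00769), and was the lowest of each culture in the library numbered 3. None of 8 CD8 T and NK cell markers passed the test, and Cd8a had a log2 fold change of 1.51 ± 1.34. The median of these 8 markers was -0.53, or -0.67 with the block, -1.78 without Treg KI 3 and 0.61 without Th1 KI 3. With the block 3 of them rose and 2 fell, and Cd8a was called (1.36, adjusted p = 0.0021).

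Of 10 B cell markers 1 rose and none fell (10% and 0%). The 1 that rose was Ighm (log2 fold change 1.41 ± 0.50, and 1.97 without both libraries numbered 3), at 466, 566, 564, 430.2 and 458 CPM in Treg KI and 124.2, 96.8, 459, 176 and 82.3 CPM in Th1 KI. The summed level of the 10 was 578 to 1407 CPM in Treg KI and 159 to 1512 CPM in Th1 KI. With the block 4 rose and 1 fell. Of 13 tested myeloid and dendritic cell markers 5 rose and none fell (38.5% and 0%), or 8 and 2 with the block. With only the 10 KI libraries, 3 of 11 tested rose and 2 fell. The members named here were all higher in Treg KI, and those that fell in these alternatives are not named. The summed level of all 14 was 29.8 to 138.1 CPM in Treg KI and 12.4 to 93.4 CPM in Th1 KI. Lyz2 was at 1.38 to 21.9 CPM against 0.0416 to 1.76 CPM, and Csf1r at 0.258 to 0.757 CPM against 0.0165 to 0.286 CPM. S100a8 and S100a9 had 0 counts in all 5 Th1 KI libraries, and their means in Treg KI were 0.588 ± 0.844 and 0.978 ± 1.31 CPM, for S100a9 at least 173-fold above the floor, or 71-fold without Treg KI 2. Of 6 erythroid markers 1 rose and 1 fell (16.7% each, near the shares of all tested genes), or 1 and 0 with the block. Of 10 mitochondrial transcripts none passed the test, while 4 rose with the block.

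The position of Treg KI 3 was general. Among 2487 well expressed genes that rose, it was the lowest Treg KI library for 1703 (68.5%), and among 2337 that fell it was the highest for 1433 (61.3%). The other 4 Treg KI libraries held that position for 3.22% to 11% of the genes that rose. Th1 KI 3 was the Th1 KI library nearest to the Treg KI group for 37.6% of the genes that rose and 47.6% of those that fell. Itgae, Ikzf2, Skil, Pmepa1, Gata3, Ciita and Ighm were among the genes above that rose without Treg KI 3 as their lowest library.

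Whether the culture effect differed between genotypes was tested as the difference of log2 fold changes. In the quasi-likelihood test of edgeR 0 genes (0.0%) differed between KI and WT and 0 (0.0%) between KI and KO, at 725 (3.31%) and 742 (3.39%) genes with an unadjusted p under 0.05. DESeq2 called 5 genes for KI against WT (Gm49804, Gm20431, Gm49890, Igkv12-89 and Ngp) and 3 for KI against KO (Enpep, Gm49890 and Fam186a), all named after their values were seen. Their log2 differences ran from -29.25 to 39.42, with SE of 2.17 to 8.67. Values of this size cannot be read as sizes of an effect, and edgeR called none of these genes. The block called 1 gene for KI against KO, Tlcd5, and leaving out Treg KO 2 called 1, Pcdh7. The culture comparison called 6737 genes (30.8%) in WT, 3416 higher (15.6%) and 3321 lower (15.2%), and 6559 (30%) in KO, 3273 higher (15%) and 3286 lower (15%).

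The lists of interferon genes had different counts in the KO cultures. Of 26 IFN-g response genes 19 rose and 2 fell in KO (73.1% and 7.69%, median log2 fold change 0.99), against none and 7 in WT (0% and 26.9%, -0.02) and the 2 and 4 given above in KI. Of 26 antiviral genes 11 rose and none fell in KO (42.3% and 0%, median 0.91), against 5 and 3 in WT (19.2% and 11.5%, 0.01) and 3 and 6 in KI. The KO counts were the same, 19 and 2 and 11 and 0, when the libraries numbered WT 4, KO 2 and KI 3 were left out. With the block the IFN-g response genes split 19 and 2 in KO, 3 and 7 in WT and 3 and 4 in KI. The antiviral genes then split 13 and 3 in KO, 7 and 9 in WT and 5 and 8 in KI. The KO counts were 19 and 2 and 11 and 2 with Cd8a as a term, and 17 and 2 and 11 and 0 with no filter. The culture effect was lower in KI than in KO for 24 of the 26 IFN-g response genes, with a median difference of -0.76, and for all 26 antiviral genes, with a median difference of -1.50. Of these differences 16 and 9 had an unadjusted p under 0.05, and none passed the adjusted test.

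Effect sizes of single genes are set side by side here for a few members. Foxp3 had log2 fold changes of 8.77 in KI, 7.79 in WT and 7.43 in KO, a difference of 0.97 ± 0.75 from WT and 1.34 ± 0.75 from KO. For Lrrc32 the values were 6.59, 5.51 and 4.5, and the differences were 1.09 ± 0.65 and 2.10 ± 0.65. Ifng had -5.16, -3.27 and -5.56, with differences of -1.89 ± 1.89 and 0.40 ± 1.87. Tbx21 had -2.76, -2.19 and -2.22, with differences of -0.58 ± 1.07 and -0.55 ± 1.07, and Myb 0.45, 0.21 and 0.64, with differences of 0.24 ± 0.33 and -0.19 ± 0.33. None of these differences passed the adjusted test, and differences within these errors were not detectable. Across 10583 well expressed genes the culture effects in KI correlated with those in WT at r = 0.940 and with those in KO at r = 0.932, a description across genes, which are not independent replicates. Of 4824 of these genes called in KI, 99.3% had the same sign in WT and 99.3% in KO.

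**Figure D5:**
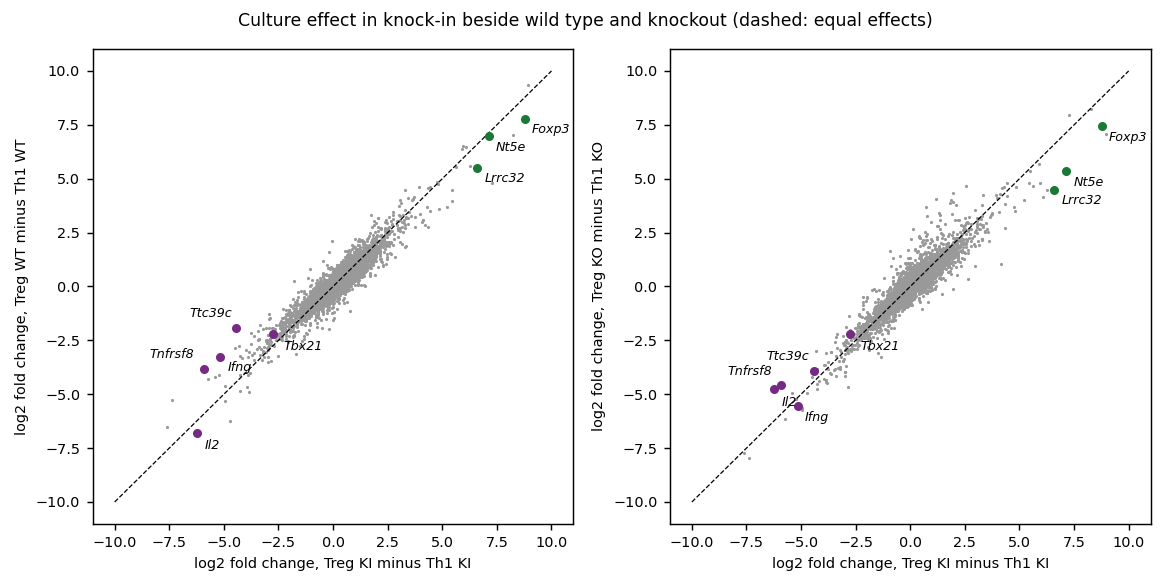
Log2 fold changes of 10583 well expressed genes in KI (horizontal axis, Treg KI minus Th1 KI) against those in WT (left) and KO (right), with the dashed line where effects are equal. Most genes lie along the line, and Lrrc32 lies below it in both panels, at 6.59 in KI, 5.51 in WT and 4.5 in KO.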

How the data were processed

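Counts per gene and sequencing lane were deposited by the authors from paired-end stranded libraries of polyadenylated RNA, aligned with STAR per the file headers. The submitters' processing notes name GRCh38, although the gene identifiers are mouse. Neither the counting tool nor its strand setting is given in the sources used here, so overlapping antisense genes may share reads. A second, normalized table was not used here.

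Both lanes of a library were added together, and all 44 libraries entered 1 model of 9 group means in edgeR 4.0.16 (R 4.3.3), with TMM factors, filterByExpr by group, the quasi-likelihood test and Benjamini-Hochberg adjustment at 0.05. The contrasts were Treg KI minus Th1 KI and its differences from the WT and KO contrasts. CPM values use TMM factors, errors of means are SD, and figures use log2 (CPM + 0.5). Errors of fold changes are SE worked back from the fold change and the F statistic of the quasi-likelihood test. The 10 KI libraries held 83718208 to 120510769 counts, and 3 counts, the least taken as detected, are 0.0249 to 0.0358 CPM in 1 library. Intervals and floors cover counting error only. The same-culture pairs differed by more than sampling noise (lowest median chi-square per gene 10.4 over 20 pairs), so no library was a copy.

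The same-numbered Treg and Th1 libraries deviated together in every pair (correlation of deviations 0.234 to 0.508 in KI, 0.168 to 0.458 in WT and 0.155 to 0.423 in KO). Differently numbered pairs gave -0.388 to 0.292 in KI, -0.457 to 0.286 in WT and -0.508 to 0.321 in KO. The own number was the best match for 4 of 5 Treg libraries in KI, 3 in WT and 5 in KO. Library number was therefore also used as a block. The labels do not say what it marks. DESeq2 1.42.0, RLE factors, no filter, Cd8a as a term, only the 10 KI libraries and left-out libraries were the other alternatives. Scripts were tested on simulated data.

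The members and the 30 gene lists were chosen with earlier results of these data known. Named genes were a fixed set of 10, the 12 largest changes each way among called genes without overlap and a mean log2 CPM of 2 or more, up to 4 called members of each list, and every member of the Treg, TGF-beta and Th1 factor lists. Some genes that this rule names are not reported here, but they stay in the counts. Gene coordinates are those of GENCODE M21, and promoters come from RefSeq's table of GRCm38.p6.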

Additional observations from a re-analysis of the deposited data

Results flagged for a closer look

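In each group of 5 libraries the highest or lowest value was compared with its nearest neighbour, relative to the range of the group. Over the 2 groups of each of 51 genes and 4 marker sums, 34 groups had a value that stood apart. The genes were chosen with earlier results known, and the groups share the same libraries. This count was therefore not compared with chance. Treg KI 3 was the library that stood apart in 17 of them and Th1 KI 3 in 12.

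In Treg KI 3 the Th1 genes stood high: Ifng at 160.1 CPM, Tbx21 at 56.85 CPM, Il12rb2 at 446.6 CPM and Gzmb at 1309 CPM. Cytokine and activation genes did so too, with Il21 at 8.799 CPM, Il3 at 1.756 CPM, Il10 at 0.2844 CPM, Cxcl10 at 4.575 CPM, Fosl2 at 116.6 CPM and Tnfrsf8 at 8.231 CPM. Ikzf2 at 137.7 CPM and Tgfb3 at 28.05 CPM were also above the other Treg KI libraries. The values that stood low there were Klf2 at 5.219 CPM and Tead1 at 0.9452 CPM. Cd8a at 317.6 CPM, the CD8 T and NK cell marker sum at 540.3 CPM and the B cell marker sum at 1407 CPM were high in the same library.

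In Th1 KI 3 the values that stood high were Cd8a at 107.4 CPM, the CD8 T and NK cell marker sum at 238.6 CPM, the B cell marker sum at 1512 CPM, the myeloid and dendritic cell marker sum at 93.36 CPM, Ighm at 458.5 CPM and Csf1r at 0.2861 CPM. The others were Gzmb at 2144 CPM, Ciita at 13.02 CPM, Ikzf2 at 35.65 CPM, Nt5e at 5.117 CPM, Ccr9 at 0.9905 CPM and Tgfb3 at 2.927 CPM.

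Elsewhere S100a8 at 2.051 CPM and S100a9 at 3.274 CPM stood high in Treg KI 2, Smad6 at 0.382 CPM in Treg KI 4, Il2ra at 2204 CPM in Th1 KI 2 and Twist1 at 0.6341 CPM in Th1 KI 4.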

How the results depend on the processing

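The number of genes called between Treg KI and Th1 KI was 7182, and over all alternatives it lay between 6048 and 8718, within 1.5 times. It was 7558 with DESeq2, 7149 with RLE factors, 6422 of 35621 genes with no filter, 8718 with the replicate block, 8398 with Cd8a as a term, 7457 of 18300 genes with only the 10 KI libraries (8508 with the block as well), 7492 without both libraries numbered KI 3 (chosen after seeing the data), 8211 when all libraries numbered WT 4, KO 2 or KI 3 were left out, and 6048 to 7800 when 1 library was left out. The culture effect differed between KI and WT for 0 genes, 5 with DESeq2, and 0 to 0 when 1 library was left out. It differed between KI and KO for 0 genes, 3 with DESeq2, 1 with the replicate block and 0 to 1 when 1 library was left out, the 1 without Treg KO 2. Beside the values given with the results, the replicate block changed no other call of a named gene. Of 157 genes named with a test, 16 were called and lost the call under at least 1 alternative, with the cause not tested. Calls lost when 1 library was left out were those of Csf1r (any but Th1 KI 3, adjusted p up to 0.113), Ifit3b (any but Th1 KI 4, Treg KI 1 and Treg KI 4, up to 0.0901), Itgam (Th1 KI 1, 2, 4 or 5, Treg KI 2 or 4, up to 0.164), Bmf (Th1 KI 1, 2 or 4, Treg KI 2 or 5, up to 0.102), Cd160 (Th1 KI 1, 2 or 5, Treg KI 3 or 4, up to 0.0614), Ighm (Th1 KI 1, 2, 4 or 5, Treg KI 2, up to 0.0796), Cxcr4 (Th1 KI 2, 4 or 5, Treg KI 3, up to 0.126), Batf3 (Treg KI 1, 2, 4 or 5, up to 0.0564), Abca1 (Th1 KI 2, Treg KI 3 or 5, up to 0.071), Il10 (Treg KI 1, 4 or 5, up to 0.0534), Pkm (Treg KI 2, 4 or 5, up to 0.0560), Il18rap (Th1 KI 5 or Treg KI 5, up to 0.0894), Cxcr6 (Treg KI 4, 0.0559), Oas1a (Th1 KI 3, 0.104) and Smad6 (Th1 KI 2, 0.0502). With no filter Csf1r (adjusted p = 0.0743), Ifit3b (0.0524) and Itgam (0.0599) were not called, nor Cxcr4 with Cd8a as a term (0.0587), Itgam (0.0513) and Cxcl11 (0.0560) with only the 10 KI libraries, or Smad6 by DESeq2 (0.418). Changes of sign were found only among named genes that were not called: Cd83 (-1.04 to 0.24 with 1 library left out, the latter without Th1 KI 3), Cd8a (-0.95 without Treg KI 3, and up to 3.61 without Th1 KI 3), Il2rb (-0.054 with Cd8a as a term), Tgfb1 (-0.079 without both libraries numbered KI 3 and also without the 3 numbers together, -0.094 with Cd8a as a term, -0.056 without Treg KI 3, -0.045 without Th1 KI 4 and up to 0.11 with 1 library left out), Tgfb2 (0.49 without Th1 KI 2, 0.03 without Treg KI 1 and down to -0.86 with 1 library left out) and Tgfb3 (-0.22 without both libraries numbered KI 3 and also without the 3 numbers together, -0.21 with Cd8a as a term, -1.27 without Treg KI 3 and up to 3.67 without Th1 KI 3). Counts of list members stayed within 1.5 times of the main count in 434 of 540 cases over the other alternatives, and in 541 cases with 1 library left out against 59 that did not. With Cd8a as a term 16 of these counts moved further and 44 did not. The number lower in that fit was 7 in the Treg list, 13 among Th1 and cytotoxic effector genes, 10 in glycolysis and 8 in the cholesterol list. The IFN-g response genes had 4 higher and 3 lower there. Smad6 gave no value without Treg KI 4, nor did Il9, S100a8, Smad6, Tgfb2 and Twist1 with only the 10 KI libraries, since they did not pass the filter there. With 5 libraries a group and no stated source of each, small differences between genotypes were not detectable, and values near 0.03 CPM rest on about 3 counts.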

Other observations

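Beyond the gene lists, several gene families, named after their values were seen, held more called genes on one side than on the other between Treg KI and Th1 KI, where 17% of all tested genes rose and 15.8% fell. Of 18 aminoacyl-tRNA synthetase genes 16 fell (88.9%) and none rose, with a median log2 fold change of -0.77. The alanine enzyme gene Aars was at 136.2 to 202 CPM in Treg KI and 242 to 337 CPM in Th1 KI, without overlap. Of 9 genes of the CCT chaperonin, which folds actin and tubulin, 8 fell (88.9%), and of 39 proteasome subunit genes 19 fell (48.7%) and none rose. Of 78 mitochondrial ribosomal protein genes 32 fell (41%) and 3 rose (3.85%), while of 86 cytosolic ribosomal protein genes 1 fell and 1 rose (1.16% each). Initiation factor genes fell in 23 of 60 cases (38.3%) and rose in 3 (5%).

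Families in which more genes rose than fell included the kinesin motors, of which 15 of 33 rose and 3 fell (45.5% and 9.09%). Zinc finger genes of the Zfp series rose in 98 of 376 cases and fell in 46 (26.1% and 12.2%). Solute carrier genes split evenly, 61 up and 57 down of 286 (21.3% and 19.9%). Of 46 clustered histone genes 3 rose and none fell (6.52% and 0%), with a median log2 fold change of 0.46. How fully these libraries of polyadenylated RNA capture histone transcripts was not tested. Without both libraries numbered KI 3 the synthetases again split 16 to 0, the CCT genes 8 to 0, and the kinesins 15 to 6.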
